A study of Mus musculus with 19 samples.

Results

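The contractile markers of smooth muscle were followed in mouse hearts by every array probe named for 1 of 9 genes: Acta2, Actg2, Myh11, Myl9, Mylk, Tagln, Cnn1, Smtn and Lmod1. They are 9 of the 34509 gene names on the array and had 18 of its 46643 probes, all of which are accounted for whatever their level. Expression was measured in FVB/N hearts, 1 bead array per animal, in 4 groups that crossed genotype with diet, and every heart was taken at ZT 18 (in the active phase of a mouse) after 16 weeks of feeding. On the normal diet the hearts came from 5 wild-type (WT) and 5 CCM mice. On the high fat diet they came from 4 WT and 5 CCM mice. CCM mice are transgenic animals without a working circadian clock in cardiomyocytes, and are known to carry a dominant-negative form of the clock protein CLOCK. The labels used here give neither the transgene's promoter nor the animals' age. The study asked whether that clock governs triglyceride metabolism, and the smooth muscle genes were not its subject. No other time of day was sampled, so a level that differs at ZT 18 cannot be told apart from a shifted daily rhythm.

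Smooth muscle cells wrap the coronary arteries and larger veins, and contract when a calcium signal activates myosin light chain kinase. The kinase, encoded by Mylk, phosphorylates the regulatory light chain of myosin, encoded by Myl9, and the smooth muscle myosin heavy chain Myh11 then pulls on filaments that hold the actins Acta2 and Actg2. Tagln (transgelin), Cnn1 (calponin), Smtn (smoothelin) and Lmod1 (leiomodin) encode proteins that bind or build these actin filaments. Serum response factor, together with its partner myocardin, turns on many of these genes through a promoter element called the CArG box. Acta2 is also made by pericytes and activated fibroblasts, whereas Myh11 is the more restricted marker of mature smooth muscle.

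The promoters of Acta2 and Myl9 are shown because, of the 6 members whose promoter was found in RefSeq's sequences (Acta2, Cnn1, Lmod1, Myl9, Mylk and Smtn), they were those that held a CArG-type element. Each window runs from 250 bases before to 50 bases after the transcript start that the table uses, on build GRCm38.p6. The Acta2 window is chr19:34255324-34255623 on the minus strand, at the 5′ end of a gene annotated at chr19:34240336-34255585. The Myl9 window is chr2:156775214-156775513 on the plus strand, at the 5′ end of a gene annotated at chr2:156775408-156781657. Capitals mark matches to the CArG box, a pair of C, 6 letters that are A or T and a pair of G, with at most 1 C or G allowed among the 6. Both strands were searched.
Acta2: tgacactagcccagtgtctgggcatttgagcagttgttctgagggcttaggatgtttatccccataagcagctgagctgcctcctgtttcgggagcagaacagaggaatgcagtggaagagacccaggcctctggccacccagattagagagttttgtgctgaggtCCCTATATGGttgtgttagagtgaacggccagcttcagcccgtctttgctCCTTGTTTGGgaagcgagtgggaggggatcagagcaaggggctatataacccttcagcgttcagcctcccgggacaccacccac
Myl9: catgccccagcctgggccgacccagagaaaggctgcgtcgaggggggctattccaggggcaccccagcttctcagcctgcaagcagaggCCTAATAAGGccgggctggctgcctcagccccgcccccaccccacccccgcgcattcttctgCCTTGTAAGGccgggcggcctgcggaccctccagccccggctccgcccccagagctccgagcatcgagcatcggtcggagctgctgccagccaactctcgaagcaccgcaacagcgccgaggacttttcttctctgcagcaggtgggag
In Acta2, CCCTATATGG began 84 bases and CCTTGTTTGG 34 bases before the start, each with 1 letter off the strict form. In Myl9, CCTAATAAGG, a strict match, began 161 bases and CCTTGTAAGG 99 bases before the start. Among all 32851 promoters of that length in the table, 1.63% held a strict CArG box and 9.98% held 1 with the mismatch allowed. CACGTG, the E-box that CLOCK and its partner bind, was in 7.15% of all promoters and in none of these 6 windows. A match or its lack describes these letters only.

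The arrays had mean signals of 418.75 to 580.37 and detected 17117 to 18731 probes each, at a detection p under 0.05. A Clock probe that checks the genotype labels (ILMN_2600964) read 14.96 to 15.48 in CCM and 6.16 to 8.40 in WT hearts, so every label held. The tissue label was met by all 8 cardiomyocyte genes listed (among them Myh6, Tnnt2 and Actc1), whose summed level lay between 18.00 and 18.13 on every array. Markers of atrial cardiomyocytes were far less even. Their summed level ran from 12.42 to 15.81 in WT and 13.30 to 15.35 in CCM hearts on the normal diet. On the high fat diet it ran from 11.59 to 15.69 in WT and 13.81 to 14.80 in CCM hearts. The part of atrial tissue in the group comparisons was not tested. Levels here are log2 normalized signals, on which 1 unit is a doubling for bright probes and understates the change of dim ones. Probes differ in how well they bind, so a level is compared between hearts and never between probes. In whole hearts, fewer smooth muscle cells and less RNA per cell cannot be told apart.

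Of the 18 probes, 12 probes of 7 genes were detected on at least 4 of the 19 arrays and could be tested. The other 6 probes were Cnn1 ILMN_1221148, Lmod1 ILMN_2604885 and 1 extra probe each for Acta2 (ILMN_1237242), Tagln (ILMN_1215145), Myh11 (ILMN_1224007) and Smtn (ILMN_2621581). Calponin and leiomodin were therefore left out of the tests below, and in a fit with no detection filter neither was called in any comparison. There Cnn1 gave 0.06 ± 0.05 and -0.03 ± 0.05 between genotypes on the normal and high fat diet, and -0.13 ± 0.05 between diets in CCM hearts (limma, unadjusted p = 0.0198, adjusted p = 0.703). Lmod1 gave 0.18 ± 0.17 and -0.20 ± 0.19 between genotypes (limma, adjusted p = 0.984 and 0.885). Cnn1 was detected on 0 arrays, with values of 4.65 to 5.02. Lmod1 was detected on 2 arrays, at 5.90 in CCM normal diet replicate 4 and 5.85 in WT high fat replicate 2, and read 4.80 to 5.36 elsewhere. Those 2 hearts recur throughout the results below.

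Acta2, smooth muscle alpha-actin, was the member that differed with genotype, and it was lower in CCM hearts. Its brightest probe, ILMN_2693895, read 13.44, 13.94, 13.45 and 13.32 in WT and 12.43, 12.83, 12.71, 13.17 and 13.07 in CCM hearts on the high fat diet. Every CCM heart lay below every WT heart. The means were 13.54 ± 0.27 (SD, n = 4) and 12.84 ± 0.29 (SD, n = 5), a fall of 0.69 ± 0.17 (SE) on the log2 scale, or 1.62-fold higher in WT (limma, adjusted p = 0.0452, 95% interval of the log2 difference -1.05 to -0.34). This was the 1 member probe called in that comparison, in which 1.59% of the 19840 probes tested were called and 0.902% were called lower. Calls here are an adjusted p under 0.05 over all probes tested.

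The weaker Acta2 probes also had lower means in CCM hearts, with larger spread. Probe ILMN_2744825 read 8.60, 9.29, 8.70 and 8.32 in WT and 7.56, 8.01, 7.72, 8.28 and 8.27 in CCM hearts on the high fat diet. The groups did not overlap, although the highest CCM heart lay just under the lowest WT heart. Its difference was -0.76 ± 0.24, which did not pass (limma, adjusted p = 0.177). Groups with every CCM heart below every WT heart were found for 2 member probes, both of Acta2, and for 2.46% of all probes tested. The remaining detected probe, ILMN_2710354, read 7.14, 8.50, 8.17 and 6.98 in WT and 5.40, 6.70, 6.78, 7.11 and 7.60 in CCM hearts, and these groups overlapped. It gave -0.98 ± 0.40 (limma, adjusted p = 0.395), and its lowest value, in CCM high fat replicate 1, was below detection.

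**Figure D1:**
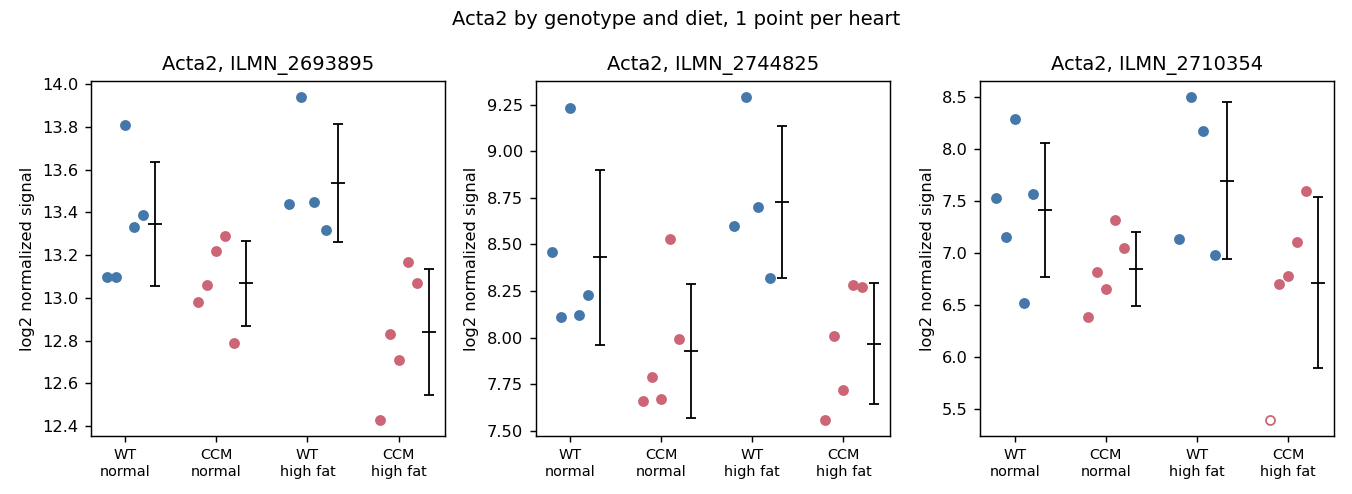
Log2 normalized signal of the 3 detected Acta2 probes by genotype and diet (WT blue, CCM red), with 1 point per heart, open where the probe was not detected, and bars for the group mean ± SD. On the high fat diet the CCM hearts of ILMN_2693895 (12.43 to 13.17) all lie below the WT hearts (13.32 to 13.94), while the groups overlap on the normal diet.

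On the normal diet Acta2 pointed the same way but was not called. ILMN_2693895 read 13.10, 13.10, 13.81, 13.33 and 13.39 in WT and 12.98, 13.06, 13.22, 13.29 and 12.79 in CCM hearts. The groups overlapped, and the difference was -0.28 ± 0.16 (limma, adjusted p = 0.755, 95% interval -0.61 to 0.06). The intervals of ILMN_2744825 (-0.98 to -0.02) and ILMN_2710354 (-1.36 to 0.23) were wider, with differences of -0.50 ± 0.23 (limma, adjusted p = 0.539) and -0.57 ± 0.38 (limma, adjusted p = 0.846). Without WT normal diet replicate 3, the highest WT heart, the 3 differences were -0.16, -0.30 and -0.35. In this comparison 0 of 12 member probes were called against 1.45% of all probes tested, and 0 member probes had every CCM heart below every WT heart against 1.41% of all probes. The limit of an unadjusted p under 0.05 was met by 1 member probe, ILMN_2744825 (limma, unadjusted p = 0.0419, adjusted p = 0.539), against 8.67% of all probes.

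The difference between diets was itself tested and did not pass. For ILMN_2693895 the genotype effect was 0.42 ± 0.23 lower on the high fat diet (unadjusted p = 0.0917, limma, adjusted p = 1). Averaging the genotype effect over both diets in the same fit, a comparison added after the data were seen, gave -0.49 ± 0.12 for ILMN_2693895 (limma, adjusted p = 0.0200) and -0.63 ± 0.17 for ILMN_2744825 (limma, adjusted p = 0.0363). Those were the 2 member probes called, where 4.15% of all probes were called and 2.17% were called lower, and ILMN_2710354 stood at -0.77 ± 0.28 (limma, adjusted p = 0.161).

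The high fat call of Acta2 lay close to the threshold and depended on which animals were included. It was lost when any of 14 of the 19 hearts was left out, with the highest adjusted p, 0.186 at a difference of -0.56, without WT high fat replicate 2 (limma). Animals numbered under 20 in the labels (3 CCM and 2 WT hearts) gave -1.04 for ILMN_2693895 (limma, adjusted p = 0.0434). Those numbered over 20 (2 CCM and 2 WT hearts) gave -0.26 (limma, adjusted p = 0.999). On the normal diet the same split ran the other way, with -0.01 under 20 and -0.47 over 20 (limma, adjusted p = 0.987 and 0.324). There 3 CCM and 2 WT hearts were numbered under 20, and 2 CCM and 3 WT hearts over 20. The difference between the parts was not tested. With the split as a block over all 19 hearts the values were -0.68 on the high fat and -0.25 on the normal diet (limma, adjusted p = 0.0386 and 0.698). The labels do not say what the numbers stand for.

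Actg2, the gamma-actin typical of smooth muscle of the gut and bladder, was not called in any comparison. ILMN_2609642 read 6.28, 5.83, 6.02, 5.84 and 6.53 in WT and 6.30, 6.49, 5.97, 7.34 and 6.42 in CCM hearts on the normal diet. On the high fat diet it read 6.33, 7.85, 6.64 and 5.95 in WT and 6.04, 6.56, 6.18, 6.36 and 5.75 in CCM hearts. The highest values were those of WT high fat replicate 2 and CCM normal diet replicate 4, and the genotypes overlapped on both diets. The genotype difference was 0.40 ± 0.29 on the normal diet and -0.52 ± 0.31 on the high fat diet (limma, adjusted p = 0.882 and 0.680). Its genotype effect differed between diets by -0.92 ± 0.42 (unadjusted p = 0.0424, limma, adjusted p = 1), and by -0.53 without WT high fat replicate 2. At an unadjusted p under 0.05, 1 member probe and 2.58% of all probes stood in that test.

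The myosin genes also gave no call. Myh11, the heavy chain, read 8.42, 7.91, 8.33, 7.92 and 8.30 in WT and 7.76, 8.59, 7.96, 9.01 and 8.49 in CCM hearts on the normal diet (ILMN_2622217). On the high fat diet it read 7.87, 9.48, 8.78 and 7.81 in WT and 8.09, 8.04, 8.17, 8.24 and 7.78 in CCM hearts. The CCM high fat hearts were close together (SD 0.18), whereas the WT high fat hearts were far apart (SD 0.80). The difference was 0.19 ± 0.27 on the normal diet (95% interval -0.38 to 0.75) and -0.42 ± 0.29 on the high fat diet (95% interval -1.02 to 0.18), with limma adjusted p of 0.997 and 0.747. Without WT high fat replicate 2 the latter was -0.09.

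Myl9, the regulatory light chain, was among the most variable genes on the array. ILMN_2718662 read 6.41 to 7.43 in WT and 5.97 to 7.55 in CCM hearts on the normal diet, and 6.76 to 8.53 in WT and 6.78 to 7.53 in CCM hearts on the high fat diet. All groups overlapped. Its genotype differences were -0.21 ± 0.33 and -0.41 ± 0.35 on the normal and high fat diet (limma, adjusted p = 0.997 and 0.817), and those of ILMN_2652456 were 0.02 ± 0.38 and -0.22 ± 0.41 (limma, adjusted p = 0.997 and 0.944). With WT high fat replicate 2 left out, the high fat differences of the 2 probes were -0.06 and 0.18. The spread within groups (residual SD of log2 values) was 0.57 for ILMN_2718662 and 0.67 for ILMN_2652456, against a median of 0.218 and a 95th percentile of 0.476 over all probes tested.

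Mylk, the light chain kinase, had narrower intervals than the other myosin genes. Its brightest probe, ILMN_1218347, read 10.05 to 10.50 in WT and 9.83 to 10.65 in CCM hearts on the normal diet, with medians of 10.17 and 10.36, and 9.97 to 10.83 in WT and 10.07 to 10.37 in CCM hearts on the high fat diet. The groups overlapped fully. Genotype differences were 0.03 ± 0.15 (95% interval -0.30 to 0.35) and -0.13 ± 0.16 (95% interval -0.47 to 0.21). Over the 3 Mylk probes the differences ran from -0.04 to 0.09 on the normal diet and from -0.13 to -0.01 on the high fat diet. The lowest p of the gene was that of ILMN_1219471, which was 0.31 ± 0.16 lower on the high fat than on the normal diet in CCM hearts (limma, unadjusted p = 0.0739, adjusted p = 0.604).

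Of the actin-binding members, Tagln was dim and Smtn bright, and neither was called. Tagln ILMN_1243652 was detected on 8 of 19 arrays, 2 in each group, and read 5.21, 5.12, 5.48, 5.32 and 5.42 in WT and 5.18, 5.56, 5.24, 6.15 and 5.47 in CCM hearts on the normal diet. On the high fat diet it read 5.30, 6.67, 5.73 and 5.21 in WT and 5.15, 5.11, 5.44, 5.53 and 5.19 in CCM hearts. WT high fat replicate 2 and CCM normal diet replicate 4 were the hearts above 6, clear of the rest. Differences were 0.21 ± 0.22 and -0.44 ± 0.24 on the normal and high fat diet (limma, adjusted p = 0.982 and 0.605), and without WT high fat replicate 2 the latter was -0.13. Smtn ILMN_2695181 read 10.83 to 12.03 in WT and 11.05 to 11.75 in CCM hearts on the normal diet, and 10.79 to 12.05 and 10.89 to 11.81 on the high fat diet. Its groups lay over each other, with differences of 0.07 ± 0.24 and -0.11 ± 0.25 (limma, adjusted p = 0.997 and 0.958).

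**Figure D2:**
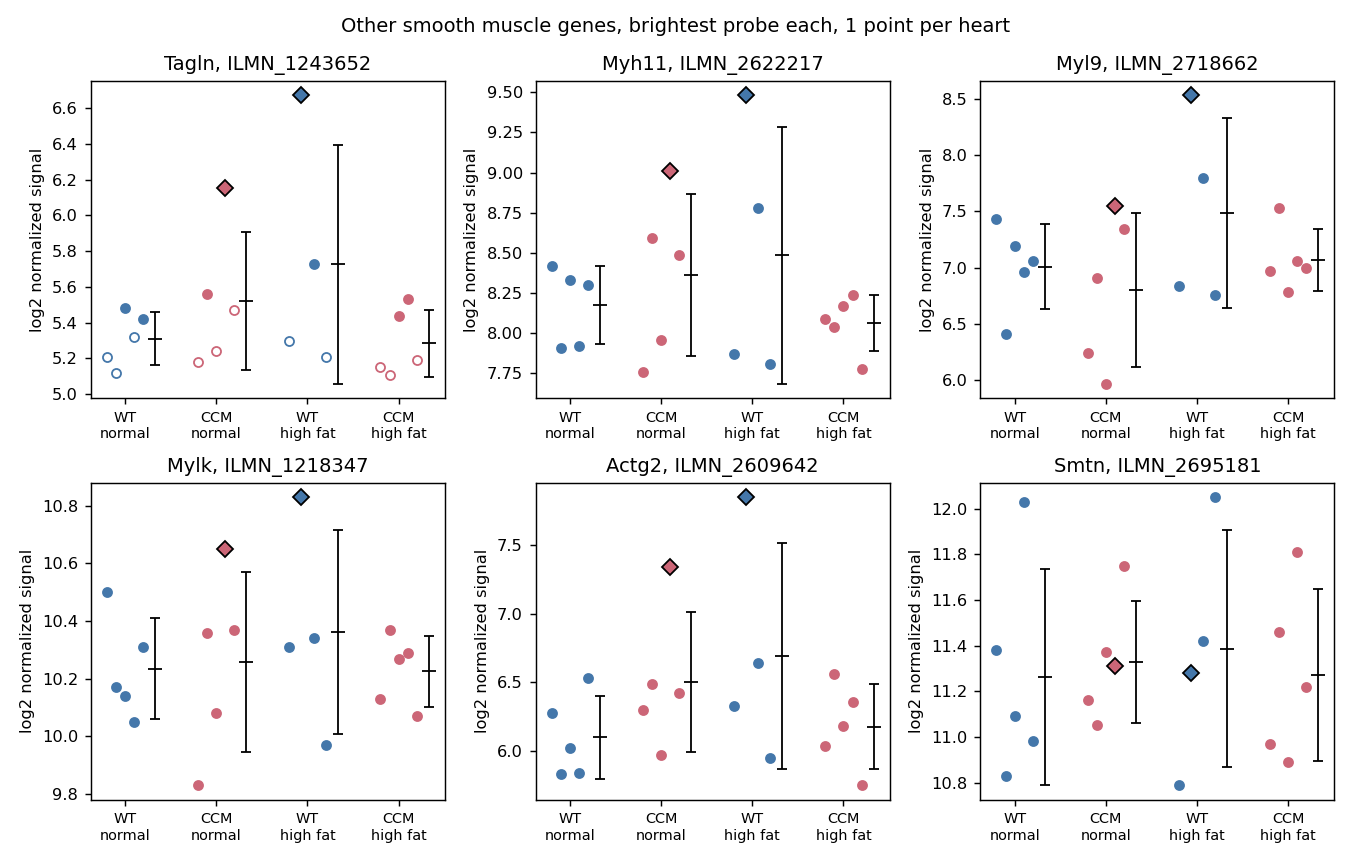
Log2 normalized signal of the brightest probe of the other 6 tested genes by genotype and diet, with 1 point per heart (WT blue, CCM red), open where not detected, and bars for the group mean ± SD. Diamonds mark WT high fat replicate 2 and CCM normal diet replicate 4, which are the highest of their groups in Tagln (6.67 and 6.15), Myh11 (9.48 and 9.01), Myl9, Mylk and Actg2, but not in Smtn.

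Counted together, the 12 tested probes were all below 0 in the high fat genotype comparison, with a median of -0.42 against 0 over all probes, of which 50.0% were below 0. On the normal diet 7 were above and 5 below 0, with a median of 0.02. The 12 probes are not 12 independent measurements, since they share 7 genes and 19 hearts, and apart from Acta2 and Smtn the high fat values rested largely on WT high fat replicate 2. Without that heart the high fat differences of Mylk ILMN_1218347 and Myl9 ILMN_2652456 were 0.02 and 0.18.

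Diet itself moved no member past the threshold. In WT hearts 0 of 12 member probes were called between diets (0.0252% of all probes, limma), with a member median of 0.29 and 0 members at an unadjusted p under 0.05, against 2.97% of all probes. In CCM hearts 0 of 12 were called as well (0.0151% of all probes, limma), with a member median of -0.10 and 0 at an unadjusted p under 0.05, against 8.45% of all probes. For ILMN_2693895 of Acta2 the change with high fat diet was 0.19 ± 0.17 in WT (95% interval -0.17 to 0.55) and -0.23 ± 0.16 in CCM hearts (95% interval -0.56 to 0.11). Both diet comparisons share their hearts with the genotype comparisons above and add no independent sample.

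**Figure D3:**
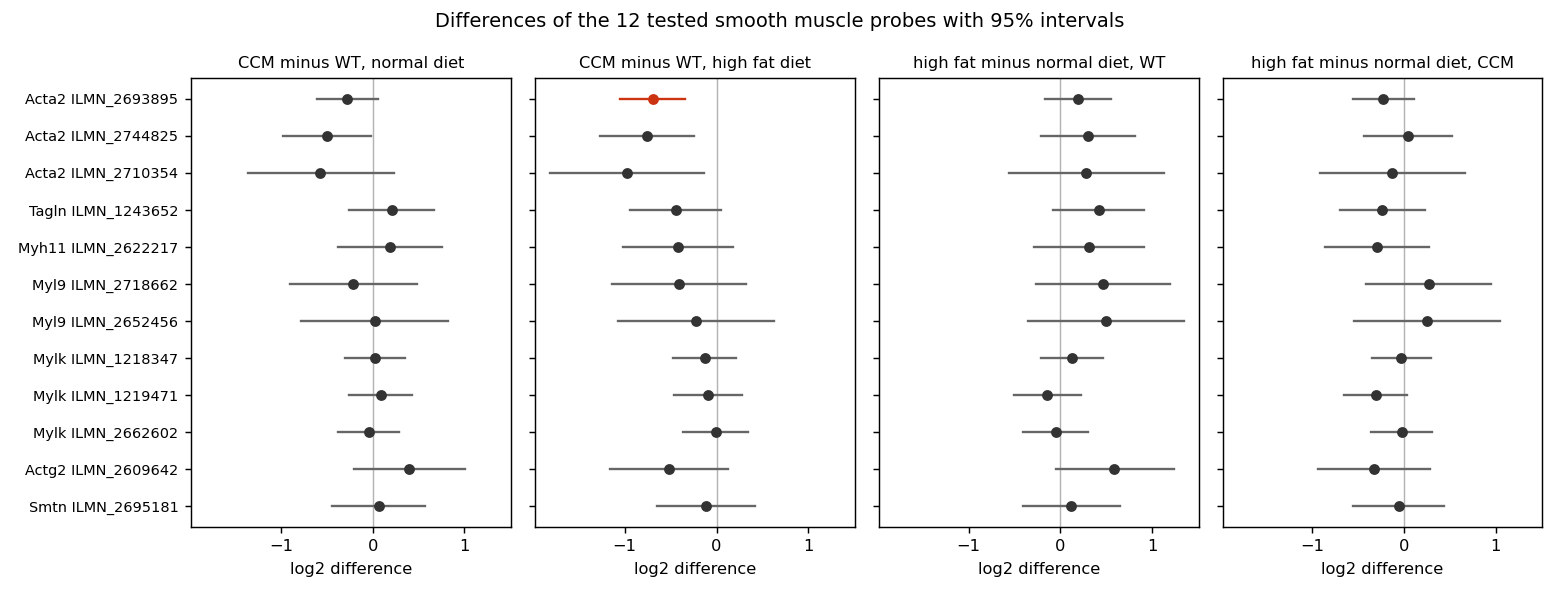
Log2 differences of the 12 tested probes in the genotype and diet comparisons, each with its 95% interval from the limma fit (red where the adjusted p was under 0.05). The single red point is Acta2 ILMN_2693895 on the high fat diet at -0.69, and the Mylk intervals are the narrowest among the myosin genes.

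Beyond the group means, most members varied together from heart to heart. Deviations from the group means were correlated over the 19 hearts in 21 pairs of genes by their brightest probes, with 100000 permutations within groups (two-sided), and 11 pairs had an adjusted p under 0.05. Pearson's r was 0.91 for Tagln and Myh11 (permutation p = 0.00018, adjusted p = 0.000756, Spearman's rho 0.82 with permutation p = 0.00087). The pair gave 0.83 without the 2 hearts farthest from the Tagln median, and 0.93 and 0.89 in animals numbered under and over 20. Myh11 gave r of 0.89 with Myl9, 0.88 with Mylk and 0.88 with Actg2. Each was at least 0.77 without the 2 hearts farthest in Myh11, WT high fat replicates 2 and 4. Tagln gave 0.77 with Myl9, 0.78 with Mylk and 0.87 with Actg2. These fell to 0.60, 0.55 and 0.65 without the 2 hearts farthest in Tagln, WT high fat replicate 2 and CCM normal diet replicate 4. Since every array was normalized as a whole, such pairs also share array effects. Over 19839 other probes tested, r with Myh11 ran from -0.57 to 0.59 (5th to 95th percentile), with a 99th percentile of 0.72. The share of all pairs of probes with an adjusted p under 0.05 was not counted.

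For Smtn and the brightest probe of Acta2, ILMN_2693895, the correlations with the other genes were lower. For that Acta2 probe, r was 0.61 with Tagln (permutation p = 0.00406, adjusted p = 0.00775, rho 0.57 with permutation p = 0.0139), and 0.47 without the 2 farthest hearts, WT high fat replicate 2 and WT normal diet replicate 3. With Myh11 it was 0.39 (permutation p = 0.108, adjusted p = 0.174, rho 0.30 with permutation p = 0.227), and 0.17 without those 2 hearts. The weaker Acta2 probes ILMN_2744825 and ILMN_2710354 gave higher r with Myh11, 0.63 and 0.58, and 0.70 and 0.60 with Tagln. Smtn gave r between -0.13 and 0.14 with the brightest probes of the other 6 genes, but -0.74 with Mylk ILMN_1219471 and -0.44 with Mylk ILMN_2662602. The log2 ratio of Acta2 over Myh11 within an array was 0.27 lower in CCM hearts on the high fat diet (exact permutation p = 0.397 over 126 splits) and 0.46 lower on the normal diet (exact permutation p = 0.103 over 252 splits), and neither difference passed the threshold. That ratio was chosen after the data were seen.

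**Figure D4:**
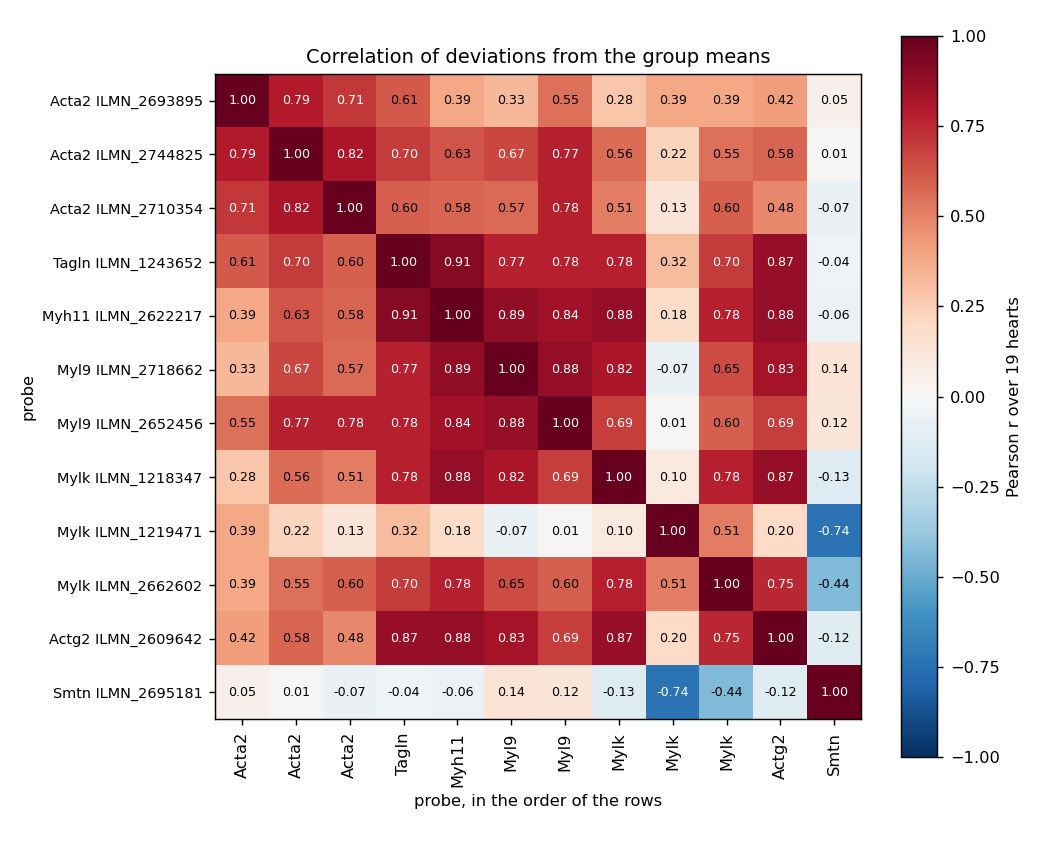
Pearson's r between the 12 tested probes over 19 hearts, from deviations of log2 values from the group means, on a scale from -1 (blue) to 1 (red). Myh11, Tagln, Actg2, Myl9 ILMN_2718662 and Mylk ILMN_1218347 form a block of 0.77 to 0.91 (Myl9 ILMN_2652456 gives 0.69 to 0.84 with the other genes of the block), the 3 Acta2 probes correlate at 0.71 to 0.82 with each other, and Smtn is between -0.13 and 0.14 with all but 2 Mylk probes (-0.74 and -0.44).

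Tested probes of 1 gene mostly told the same story. The tested Acta2 probes gave r of 0.79, 0.71 and 0.82 with each other and the Myl9 probes gave 0.88. The extra probes of Acta2, Tagln, Myh11 and Smtn were detected on 0 arrays and did not enter. Smtn ILMN_2621581 stayed at 4.77 to 5.08 where ILMN_2695181 read 10.79 to 12.05. Agreement between probes was therefore not shown for Tagln, Myh11 and Smtn, each with a single tested probe. Mylk was the exception, since ILMN_1218347 gave 0.78 with ILMN_2662602 but 0.10 with ILMN_1219471 (permutation p = 0.750, adjusted over 7 pairs of probes 0.750). ILMN_1219471 and ILMN_2662602 gave 0.51 (permutation p = 0.0606, adjusted p = 0.0707), with 0.10 in animals numbered under 20 and 0.74 in those over 20. The tables used here do not say which Mylk transcripts each probe reads.

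The 2 hearts with high smooth muscle values stood high in their groups for some other tissue markers and low for others. WT high fat replicate 2 had a summed atrial cardiomyocyte level of 15.45 in a group that ran from 11.59 to 15.69, the highest elastic vessel wall level of its group (12.16, lowest 11.41) and the highest adipocyte level (11.27, lowest 10.57). CCM normal diet replicate 4 had the highest atrial (15.35, lowest 13.30), adipocyte (11.67, lowest 10.37) and mesothelial (9.33, lowest 7.67) levels of its group. Summed pericyte levels were second lowest of the group in both hearts (13.22 and 13.32), as was the fibroblast level of CCM normal diet replicate 4 (14.68), while that of WT high fat replicate 2 (14.79) was the highest of its group. Over all hearts the deviations of Acta2 or Myh11 were set against 15 summed lists each, and 0 of the 30 relations had an adjusted p under 0.05 (100000 permutations within groups). The highest r were 0.60 for Myh11 with the elastic list (permutation, adjusted p = 0.235) and 0.60 with the macrophage list (permutation, adjusted p = 0.282). The part of these tissues in the smooth muscle values was not tested.

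Calls were few among other genes of the smooth muscle programme. Over all probes 1.45% were called between genotypes on the normal and 1.59% on the high fat diet, so short lists may hold 0 calls. Of 20 further contractile and cytoskeletal genes 19 were tested and 0 were called in any comparison. In the high fat genotype comparison 15 of 19 were below 0 with a median of -0.07, against 50% of all probes and a median of 0. Itga8, the integrin alpha subunit typical of vascular smooth muscle, gave -0.80 ± 0.38 there (limma, adjusted p = 0.522), and -0.29 without WT high fat replicate 2. Pdlim3, a Z-disc and actin-filament linker, gave -0.59 ± 0.27 (limma, adjusted p = 0.468). The other 2 genes of the list with the smallest p were above 0, with Vcl, the adhesion protein vinculin, at 0.06 ± 0.08 and Des, the muscle intermediate filament desmin, at 0.36 ± 0.17 (limma, adjusted p = 0.922 and 0.501). Regulators of the programme did not pass either, and 0 of 13 tested were called. On the high fat diet their summed level was 15.04 to 15.14 in CCM and 15.15 to 15.26 in WT hearts, just without overlap. On the normal diet the groups overlapped (15.10 to 15.22 and 15.13 to 15.30). In whole hearts, the cells that these transcripts came from cannot be told. Srf, which encodes serum response factor, gave 0.04 ± 0.08 and Myocd, myocardin, gave 0.03 ± 0.24 on the high fat diet. Between diets in CCM hearts the brightest Myocd probe, ILMN_2435360, gave -0.57 ± 0.23 (limma, unadjusted p = 0.0206, adjusted p = 0.589). The weaker Myocd probes ILMN_1218766 and ILMN_2626391 gave -0.10 ± 0.15 and -0.18 ± 0.17 (limma, adjusted p = 0.836 and 0.725). The forkhead factor Foxs1 gave 0.38 ± 0.14 and 0.25 ± 0.15 on the normal and high fat diet (limma, adjusted p = 0.316 and 0.665), and the TGF-beta receptor Tgfbr2 gave -0.25 ± 0.10 and -0.23 ± 0.10 (limma, adjusted p = 0.389 and 0.462). Notch3, a receptor of mural cells that is also in the pericyte list, gave 0 ± 0.13 and 0.31 ± 0.14 (limma, adjusted p = 0.999 and 0.477).

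The exception lay in contraction signalling, where 1 of 13 tested genes was called on each diet. Of all probes tested, 1.45% were called on the normal and 1.59% on the high fat diet. Prkg1, the cGMP-dependent kinase that relaxes smooth muscle and is also present in other heart cells, rose in CCM hearts. Probe ILMN_2473274 read 10.11, 10.16, 10.12, 10.32 and 10.12 in WT and 11.07, 10.88, 11.15, 10.66 and 10.86 in CCM hearts on the normal diet. On the high fat diet it read 10.42, 10.25, 10.03 and 10.20 in WT and 11.30, 11.08, 11.23, 11.07 and 10.90 in CCM hearts. No CCM heart overlapped a WT heart on either diet, a pattern whose share among all probes was not counted. The differences were 0.76 ± 0.10 and 0.89 ± 0.11 (limma, adjusted p = 0.000206 and 5.9e-05). Leaving out any 1 heart kept both calls, and in animals numbered over 20 alone the values were 0.57 and 0.87 (limma, adjusted p = 0.131 and 0.0873). Those animals were 2 CCM and 3 WT hearts on the normal diet, and 2 CCM and 2 WT hearts on the high fat diet. A weaker probe, ILMN_2693295, gave 0.89 ± 0.26 and 0.81 ± 0.27 (limma, adjusted p = 0.117 and 0.209), and a further probe was detected on 3 arrays and was not tested. Ednra, the endothelin receptor that drives vascular contraction, gave -0.20 ± 0.11 and -0.35 ± 0.12 (limma, adjusted p = 0.719 and 0.215).

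Of the 3 other actins tested, 1 was called on the high fat diet, against 1.59% of all probes, and it was higher in CCM hearts. Acta1, skeletal alpha-actin, which heart muscle also expresses, read 14.51, 14.67, 14.53 and 14.11 in WT and 14.99, 15.23, 15.14, 15.20 and 15.07 in CCM hearts on the high fat diet. It rose by 0.67 ± 0.15 (limma, adjusted p = 0.0218), a call lost without any 1 of 4 hearts, with the highest adjusted p, 0.107, without WT high fat replicate 4. On the normal diet it gave 0.21 ± 0.14 (limma, adjusted p = 0.842). Cardiac actin Actc1 and cytoplasmic actin Actb gave -0.01 ± 0.07 and 0.01 ± 0.16 on the high fat diet.

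Markers of the cells next to smooth muscle gave 0 calls in either genotype comparison, against 1.45% and 1.59% of all probes tested. This held for 9 pericyte, 10 fibroblast, 10 endothelial, 7 elastic vessel wall, 6 atrial, 4 adipocyte, 7 macrophage, 4 erythroid and 3 mesothelial genes tested. Among pericyte genes, Abcc9, the regulatory subunit of their potassium channel, which heart muscle also uses, gave -0.45 ± 0.13 and -0.42 ± 0.14 (limma, adjusted p = 0.146 and 0.221), and -0.43 ± 0.10 averaged over diets (limma, adjusted p = 0.0124). Averaged over diets, 4.15% of all probes tested were called. The pericyte median was 0 on the normal and 0.06 on the high fat diet. The summed pericyte level of CCM hearts (13.11 to 13.52) overlapped that of WT hearts (13.21 to 13.53) on the high fat diet. Of the adipocyte genes, Cidea, a lipid droplet gene, gave 0.39 ± 0.09 averaged over diets (limma, adjusted p = 0.0131), with 0.43 on the normal and 0.36 on the high fat diet. The other 3 were above 0 on the normal diet (Adipoq 1.04, Cfd 0.69, Cidec 0.53) and below 0 on the high fat diet (-0.58, -1.10 and -0.22), so that the adipocyte median was 0.61 and -0.40. Without WT high fat replicate 2 the high fat value of Cfd was -0.70. Summed fibroblast levels on the high fat diet were 14.62 to 14.79 in CCM and 14.70 to 14.79 in WT hearts. All 4 erythroid genes were below 0 on both diets, with medians of -0.65 and -0.21. The 7 elastic vessel wall genes were all above 0 on the normal diet (median 0.26), where the 7 macrophage genes were all below 0 (median -0.26). Those medians were 0.01 and 0.06 on the high fat diet. The part of these cells in the Acta2 difference was not tested.

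**Figure D5:**
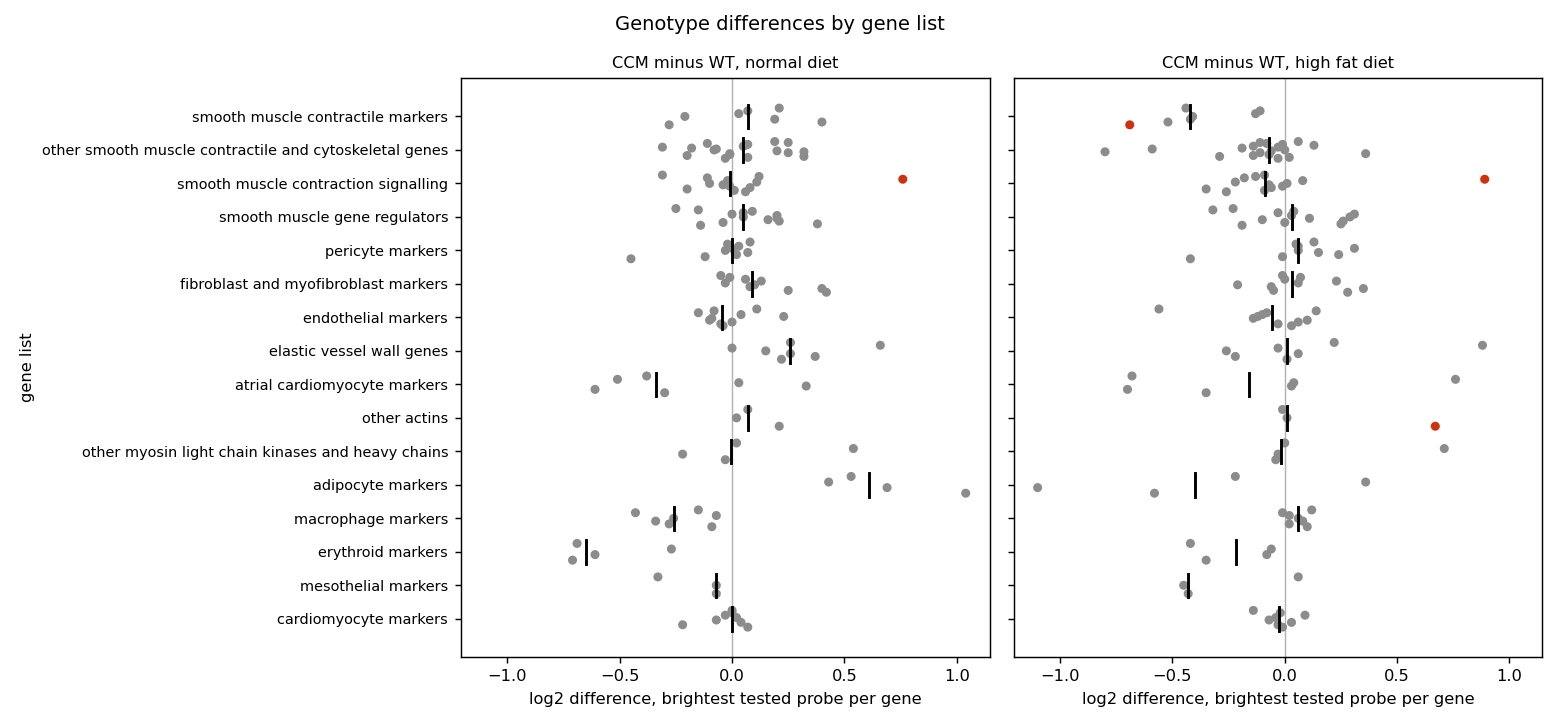
Log2 differences between CCM and WT hearts by gene list on each diet, with 1 point per tested gene (brightest probe), a black bar at the list median and red points where the adjusted p was under 0.05. Red points are Acta2 (-0.69, high fat diet), Prkg1 (0.76 and 0.89) and Acta1 (0.67, high fat diet), and the contractile markers have a median of -0.42 on the high fat diet.

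Some genes that are not members, Itga8 of the contractile list among them, followed the members closely from heart to heart. With the mean profile of the 7 tested members, high r over 19 hearts were 0.89 for Mustn1, 0.88 for Itga8, 0.86 for Sh3bgrl, 0.85 for Aebp1 and 0.84 for Cd9, where the 99th percentile over 19828 probes was 0.71. Without the 2 farthest hearts Mustn1 kept 0.87 and Itga8 gave 0.72. For Acta2 alone they were 0.83 for Ninl, 0.80 for Ecm1 and 0.80 for Ncam1, where the 99th percentile over 19837 probes was 0.58. None of the genes nearest to Acta2 ILMN_2693895 was among those nearest to the mean profile. Lists this short, out of so many probes, cannot show whether Acta2 varied apart from the other members. These genes were picked by that likeness, so the values are a description.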

How the data were processed

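Total RNA of 19 hearts was hybridised to Illumina bead arrays, and each replicate was an animal of its own. Per the file headers, the authors deposited average bead intensities without normalization, each with a detection p-value. The submitters' processing notes name BeadStudio 3 but none of its background settings. The authors' deposited table of normalized intensities served only as an alternative.

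Intensities were background-corrected (offset 16, background from the detection p-values), quantile normalized and put on the log2 scale with neqc in limma 3.58.1 (R 4.3.3). Fold changes are on that scale. Probes detected on at least 4 of 19 arrays were tested (19840), with 1 mean per group over all arrays, lmFit and eBayes (degrees of freedom 15 residual, 3.67 prior), two-sided tests and Benjamini-Hochberg adjustment over all probes tested. The fit was on probes because the members are probes. The script was tested on simulated data. Errors after ± are standard errors unless SD is named.

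Members are all probes carrying 1 of the 9 symbols in the deposited table. Gene names were updated through RefSeq's mouse genes on GRCm38.p6, which matched 26165 probes through accessions, 4639 through symbols and 3898 through older symbols, while 11941 kept the deposited name. Companion lists enter by the brightest tested probe of each gene, and at most 4 genes per list with the smallest p, all other actins, and the 6 and 3 genes most like the members and Acta2 are named. Srf was named after its value was seen. A result that this rule would name is not reported here. The members and lists were chosen with earlier results of these data known.

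The alternatives were other normalizations, the authors' values, other detection filters, 1 probe per gene, trended robust eBayes, array weights, fits of single pairs of groups, a block for animal numbers and fits without single hearts or the 3 arrays of lowest signal. Fits within animals numbered under or over 20 and without 2 hearts that stood apart were added after seeing the data.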

Additional observations from a re-analysis of the deposited data

Results flagged for a closer look

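One value lay apart from its group by Dixon's test at the 95% level. Mylk ILMN_1219471 read 8.45 in CCM normal diet replicate 5, the lowest of 5 hearts, whose other values ran from 9.11 to 9.31. The test was applied to 48 groups of member values, and chance flags about 1 in 20. The same probe is the one that followed the other Mylk probes least.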

How the results depend on the processing

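No paired analysis was possible because the labels give every animal a number of its own, and the replicate numbers used here only name the hearts within a group. With the sensitivity settings run here, 0 member probes were called on the normal diet, between diets or for the difference between diets in any setting, and no called value changed sign. The single member probe called on the high fat diet became 0 with no detection filter, with only the 2 groups compared, without the 3 arrays of lowest signal, in animals numbered over 20 alone, and without WT high fat replicate 2 and CCM normal diet replicate 4 together; leaving out single hearts gave 0 to 1. The 2 member probes called averaged over diets became 1 with no detection filter, with 1 probe per gene and in animals numbered under 20 alone, and 0 without the 3 arrays of lowest signal and in animals numbered over 20 alone, while leaving out single hearts gave 0 to 2 (0 without WT high fat replicate 2). The causes were not tested. Of all probes, 316 were called on the high fat diet, 184 without the 3 arrays of lowest signal, 207 without WT high fat replicate 4, 88 under 20 and 37 over 20. On the normal diet 287 were called, 176 with only the 2 groups compared, 75 under 20 and 74 over 20. Averaged over diets 823 were called, 243 under 20 and 174 over 20. Between diets 0 to 20 in WT (5 as reported) and 0 to 13 in CCM hearts (3 as reported) were called, and 0 for the difference between diets, where 511 had an unadjusted p under 0.05 (limma). Signal over background limits Tagln, Lmod1 and Cnn1.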
